A study of Mus musculus with 6 samples.

Results

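The genes described here encode nucleolar proteins that build ribosomes. The list held 36 of them, and a member was taken where the table had probe sets annotated to that gene and to no other. By this rule 35 of the 36 were measured, among 14586 genes tested in all. The remaining member, Npm3, which encodes a histone chaperone of the nucleolus related to nucleophosmin, was not measured, since each of its 8 probe sets also named Npm3-ps1. Expression was measured on 6 arrays of mouse bone marrow cells labelled KLSCD34-, the Kit positive, lineage negative, Sca-1 positive, CD34 negative gate that is used to sort long-term haematopoietic stem cells. The 3 control arrays carry no label of genotype beyond control. The 3 floxed arrays come from mice with floxed beta-catenin (Ctnnb1) alleles that are positive for vav-Cre, a Cre recombinase driven by Vav regulatory elements, which are active in blood cells in general and not in stem cells alone. Whether the controls carried floxed alleles or the Cre, the age of the mice, and whether a replicate was 1 mouse or a pool are not given in the sources used here, so p-values measure the spread between these arrays, which may be technical.

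Ribosomes are assembled in the nucleolus. RNA polymerase I transcribes the long precursor of the ribosomal RNAs, small nucleolar ribonucleoproteins (snoRNPs) modify it, and successive sets of assembly factors fold and cut it into the RNAs of the small and the large subunit. The genes of these factors are commonly transcribed in step with cell growth, and the Myc transcription factor is a known activator of many of them. Blood stem cells at rest are known for a low rate of protein synthesis.

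All values below are log2 expression values as deposited, or differences between them, given as floxed minus control. Each gene is given on an array by the median of those of its probe sets that averaged 7.60 or more, the midpoint of all probe sets. Values set the same gene side by side across arrays. They do not compare the amounts of different genes, since probe sets differ in brightness. The targeted gene checked the labels: 5 of the 16 Ctnnb1 probe sets that were kept passed the test, and their mean was 11.29, 11.43 and 11.40 on the control arrays against 6.12, 6.36 and 5.72 on the floxed arrays, while the mean of the other 11 was 10.92 to 11.12 and 10.97 to 11.09. Of the gate genes, Kit lay between 11.63 and 11.90 and Ly6a, which encodes Sca-1, between 10.93 and 11.89 on all 6 arrays. Cd34 RNA lay between 12.62 and 12.70 although these cells were sorted as CD34 negative, which is a property of surface protein and was not measured. Of 10 gate and stem cell genes measured, 6 were higher and 4 lower (60% higher, against 54.2% of all genes), with a median log2 fold change of 0.03. Among them the stem cell genes Hlf and Mecom had −0.02 and 0.12. Across genes, which are not independent replicates, control arrays correlated with each other at 0.880 to 0.934 and floxed arrays at 0.962 to 0.972. Pairs of a control and a floxed array correlated at 0.915 to 0.963.

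None of the 35 members passed the test. Their levels in floxed arrays lay within 1 log2 unit of the controls for every member by the 95% confidence interval. The same held for 14161 of all 14586 genes. In limma with Benjamini-Hochberg adjustment over all genes, 0 of 35 members passed (smallest adjusted p = 0.999), as did 0 of all 14586 genes (0%). On the higher side in floxed arrays stood 25 members and on the lower side 10 (71.4% higher, against 54.2% of all genes). Their median log2 fold change was 0.06, beside 0.02 over all genes. The log2 fold changes ran from −0.22 for Utp18 to 0.41 for Wdr12. The median 95% confidence interval of a member reached 0.32 to either side. An unadjusted limma p under 0.05 was found for 2 members on the higher side (5.71%, against 2.43% of all genes), Gar1 and Nop10, and for 0 on the lower side (against 1.28% of all genes). Counted in both directions together, there were 6 such members without control replicate 1 (17.1%, against 16.6% of all genes at that setting). Without control replicate 3 or floxed replicate 1 there were 0 (against 3.74% and 1.47% of all genes). Without floxed replicate 2 or 3 there was 1 (2.86%, against 1.81% and 3.76%). Array weights gave 13 (37.1%, against 22.2%) and the mean of probe sets 4 (11.4%, against 3.61%). The filter at the 75th percentile gave 3 (8.57%, against 4.53%). No filter gave 0 (against 5.22%), and eBayes without trend gave 1 (2.86%, against 3.44%). All 3 floxed arrays lay above all 3 controls for 3 members, Gar1, Rrp1b and Wdr75 (8.57%, against 5.57% of all genes), and below them for 0 (against 2.87%). These values moved with the settings, for the members and for all genes alike. Without control replicate 3 the median of the members was 0.03 with 20 of 35 higher (57.1%), where all genes had 0.0019 and 50.4%. With array weights it was 0.02 with 18 of 35 higher (51.4%), where all genes had −0.01 and 47.3%. Without a filter on dim probe sets it was 0.13 with 28 of 35 higher (80%), where all genes had −0.00099 and 49.8%. Without control replicate 2 or floxed replicate 2 it was 0.08, also with 28 of 35 higher, where all genes had 59.3% and 53.6%.

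**Figure D1:**
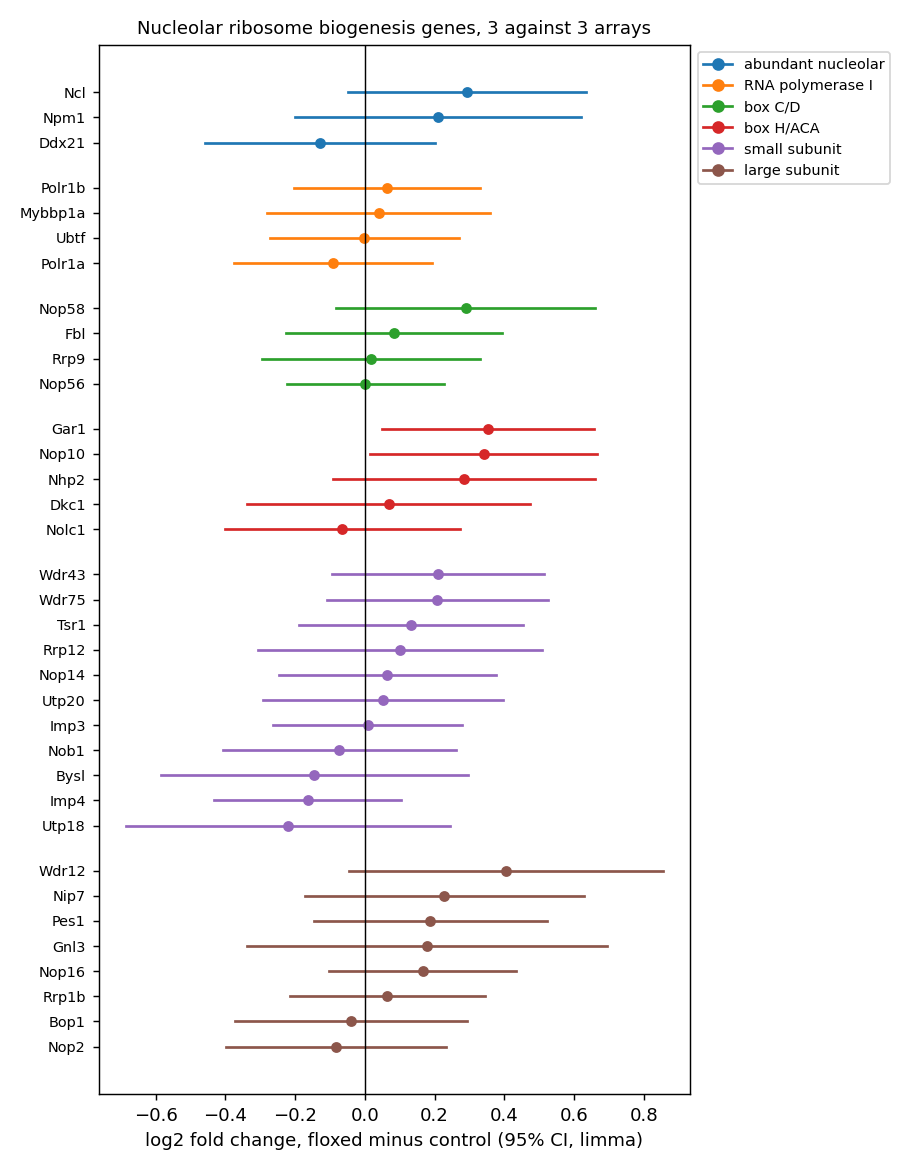
Log2 fold change of each of the 35 measured members (points, floxed minus control) with its 95% confidence interval from limma (lines), grouped by role and ordered within it; 3 arrays per group. The intervals of Gar1 and Nop10 lie above 0 before adjustment, those of the other 33 members cross 0, and no member passed after adjustment.

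The genes of the box H/ACA snoRNP held the members with the smallest p-values. This particle turns selected uridines of ribosomal RNA into pseudouridine, and its 4 core proteins are the catalytic subunit dyskerin (Dkc1) with Gar1, Nhp2 and Nop10; the same proteins bind telomerase RNA. Gar1 was 9.75, 9.81 and 9.54 in the controls against 10.01, 9.95 and 10.20 on the floxed arrays. The groups did not overlap. Its log2 fold change was 0.35 (SE 0.14, limma adjusted p = 0.999), a fold of 1.28, from a mean of 9.70 ± 0.14 (SD, n = 3) to 10.05 ± 0.13 (SD, n = 3). Nop10 was 11.14, 10.73 and 10.60 in the controls against 11.26, 11.15 and 11.08 on the floxed arrays. Control replicate 1 lay within the floxed range and the other two controls below it. The log2 fold change of Nop10 was 0.34 (SE 0.15, limma adjusted p = 0.999). Nhp2 was 9.08, 8.60 and 8.71 in the controls against 9.16, 8.91 and 9.18 on the floxed arrays, with a log2 fold change of 0.28 (SE 0.17). Again control replicate 1 was the control that overlapped. Dkc1, the catalytic member, had 0.07 (SE 0.18), and its highest value of all 6 arrays was 10.43 on control replicate 1. Nolc1, a chaperone that escorts snoRNPs into the nucleolus, had −0.07 (SE 0.15). When 1 array at a time was left out, the log2 fold change of Gar1 ran from 0.27 to 0.41, that of Nop10 from 0.23 to 0.50 and that of Nhp2 from 0.19 to 0.43. With array weights Nop10 was the 1 member that passed (0.42, limma adjusted p = 0.0407), at a setting where 404 of 14586 genes (2.77%) passed.

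The last 150 bases before the annotated start of Gar1 and Nop10, the members with the smallest p-values, are shown because both were higher in floxed arrays while their promoters share no match of the motifs searched. Sequences are from RefSeq on GRCm38.p6, 5′ to 3′ on the strand of the gene, with matches of any motif searched in capitals. The capitals in Gar1 mark a match of the ETS motif CCGGAAG on the other strand.
Gar1, chr3:129831397-129831546, minus strand: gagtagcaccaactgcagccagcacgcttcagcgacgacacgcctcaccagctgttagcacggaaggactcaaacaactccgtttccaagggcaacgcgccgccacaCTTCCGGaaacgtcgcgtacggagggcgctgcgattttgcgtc
Nop10, chr2:112261776-112261925, plus strand: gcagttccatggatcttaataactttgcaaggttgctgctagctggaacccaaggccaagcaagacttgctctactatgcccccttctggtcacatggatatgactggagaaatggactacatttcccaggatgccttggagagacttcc

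The box C/D snoRNP adds methyl groups to ribosomal RNA, and its 4 members here were all on the higher side, with log2 fold changes from 0.0011 to 0.29. Nop58, a core scaffold protein, was 9.72, 9.31 and 9.60 in the controls against 10.10, 9.79 and 9.61 on the floxed arrays. Floxed replicate 1 stood highest, and floxed replicate 3 lay within the control range. The log2 fold change of Nop58 was 0.29 (SE 0.17, limma adjusted p = 0.999), but 0.16 without floxed replicate 1 and 0.17 without control replicate 2. Its partner Nop56 had 0.0011 (SE 0.10), and the methyltransferase gene Fbl, which encodes fibrillarin, had 0.08 (SE 0.14). Rrp9, a protein specific to the U3 snoRNP that guides early cuts of the precursor, had 0.02 (SE 0.14). The sign of Nop56 and Rrp9 turned to the lower side when arrays were quantile normalized or set to equal medians.

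Of the abundant nucleolar proteins, nucleolin (Ncl) and nucleophosmin (Npm1) were on the higher side and the RNA helicase gene Ddx21 on the lower side. Ncl was 11.14, 11.04 and 11.25 in the controls against 11.77, 11.40 and 11.14 on the floxed arrays. Floxed replicates 1 and 2 stood above all controls, and floxed replicate 3 lay among them. Its log2 fold change was 0.29 (SE 0.15, limma adjusted p = 0.999). It was 0.12 without floxed replicate 1, 0.44 without floxed replicate 3, and 0.10 where its probe sets were averaged. Npm1 had the same order of floxed arrays, at 11.92, 11.70 and 11.28, beside 11.51, 11.08 and 11.69 in controls, with a log2 fold change of 0.21 (SE 0.19). That value was 0.04 without control replicate 2, 0.07 without floxed replicate 1, 0.34 without control replicate 3 and 0.39 without floxed replicate 3. A further 2 probe sets of Npm1 named several genes and were left out, and the annotation does not say whether its other probe sets also bind processed copies of the gene. Ddx21 was 10.44, 10.57 and 10.24 in the controls against 10.11, 10.22 and 10.54 on the floxed arrays. The order of the floxed arrays was the opposite one, with replicate 3 highest. Its log2 fold change was −0.13 (SE 0.15), and 0.08 where its probe sets were averaged instead.

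The members that transcribe ribosomal DNA differed little between groups. The subunit genes of RNA polymerase I had −0.09 (SE 0.13) for Polr1a and 0.06 (SE 0.12) for Polr1b. Polr1a was 10.03, 10.14 and 9.88 in the controls against 9.88, 9.94 and 9.95 on the floxed arrays, with the floxed values inside the control range. Ubtf, which opens the ribosomal DNA for the polymerase, had −0.0012 (SE 0.12), and Mybbp1a, a nucleolar protein that binds the polymerase and Myb, had 0.04 (SE 0.14). The 95% confidence intervals of the 4 genes lay between −0.38 and 0.36.

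Factors of the small subunit held both the lowest member and members on the higher side. Of 11 measured, 7 were higher and 4 lower, and their median was 0.05 on the log2 scale. Utp18, a WD-repeat protein of the processome that cuts the precursor, was 9.08, 8.73 and 8.87 in the controls against 8.83, 8.20 and 8.98 on the floxed arrays. The difference of −0.22 (SE 0.21, limma adjusted p = 0.999) came with a single low array, floxed replicate 2, and the others overlapped. Without floxed replicate 2 it was 0.013. Imp4, which holds the U3 RNA to the precursor together with Imp3, was 10.70, 10.73 and 10.49 in the controls against 10.42, 10.46 and 10.56 on the floxed arrays. Control replicates 1 and 2 stood above all floxed arrays. Its log2 fold change was −0.16 (SE 0.12, limma adjusted p = 0.999), and −0.0070 with the filter at the 75th percentile, while Imp3, measured by 1 probe set, had 0.0083 (SE 0.12). Bysl, an assembly factor that acts late on the small subunit, was 8.65, 9.04 and 8.26 in the controls against 8.51, 8.47 and 8.53 on the floxed arrays. The floxed values lay together in the middle of the wide control range, and the difference was −0.14 (SE 0.20). Nob1, the nuclease that makes the final cut of the small subunit RNA, had −0.07 (SE 0.15).

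On the higher side of the small subunit factors stood Wdr43 and Wdr75, WD-repeat proteins that bind the precursor early. Wdr75 was 9.52, 9.50 and 9.17 in the controls against 9.59, 9.61 and 9.62 on the floxed arrays. The groups did not overlap, and control replicate 3 stood apart below. Its log2 fold change was 0.21 (SE 0.14, limma adjusted p = 0.999), and 0.09 without control replicate 3. Wdr43 also had 0.21 (SE 0.14), with its lowest value, 10.14, on control replicate 3. The remaining factors of the small subunit had log2 fold changes of 0.13 for Tsr1, a GTPase-like factor of late steps, 0.10 for Rrp12, 0.06 for Nop14 and 0.05 for Utp20.

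Of the 8 members of the large subunit 6 were higher and 2 lower, and their median was 0.17 on the log2 scale. Wdr12 forms the PeBoW complex with Pes1 and Bop1, which is needed to process the large subunit RNAs. It was 9.16, 8.62 and 8.52 in the controls against 9.48, 9.08 and 8.97 on the floxed arrays. Within each group replicate 1 stood highest, and control replicate 1 overlapped the floxed range. Its log2 fold change was 0.41 (SE 0.20, limma adjusted p = 0.999), the highest of any member at this setting. Leaving out control replicate 3 gave 0.23 and leaving out floxed replicate 1 gave 0.25, while it was 0.24 with no filter or with the filter at the 75th percentile. Its partners had 0.19 (SE 0.15) for Pes1 and −0.04 (SE 0.15) for Bop1, whose sign changed between settings. Rrp1b, a nucleolar protein that also binds chromatin, was 9.40, 9.44 and 9.47 in the controls against 9.50 on each floxed array. The groups did not overlap, yet the difference was 0.06 (SE 0.13). Gnl3, which encodes the GTP-binding protein nucleostemin of stem cells, ranged most widely among controls, from 9.55 to 10.56, and had 0.18 (SE 0.23). Nip7 and Nop16 had 0.23 and 0.17, and the RNA methyltransferase gene Nop2 had −0.08.

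**Figure D2:**
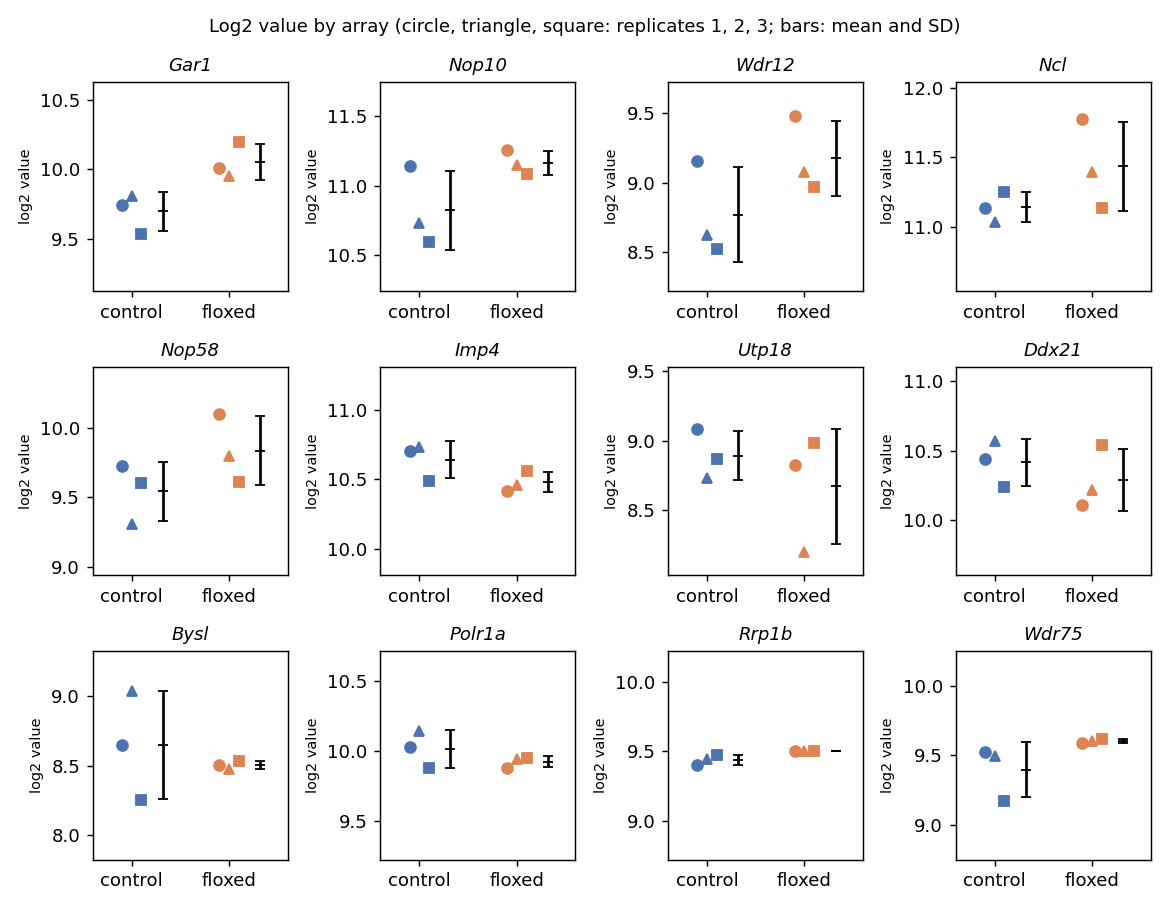
Log2 value on each array for the 12 members given in full, with control arrays in blue and floxed arrays in orange (circle, triangle and square for replicates 1, 2 and 3); black bars show the mean and SD of 3 arrays, and every panel spans 1.5 log2 units. The groups are separate for Gar1, Rrp1b and Wdr75 and overlap for the other 9.

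Promoters of 32 of the 36 genes were matched by symbol, in 40 windows since some genes have several starts. Over the 250 bases before the start, the members had a median GC content of 57.0%, beside 52.4% over 32841 windows of all genes. The E-box CACGTG, which Myc with Max can bind, was found in 3 of the 32 members (9.38%), beside 6.86% of 27018 genes; this and the other motifs were searched on both strands. They were Imp4, Nop2 and Utp18, all 3 on the lower side in floxed arrays, although the sign of Nop2 and Utp18 turned under some alternatives. The ETS motif CCGGAAG was found in 6 members, Gar1, Nhp2, Nip7, Nolc1, Nop2 and Utp18 (18.8%, beside 7.83% of genes). Both shares are descriptions, and letters in a window do not show a bound site. The TCF/LEF motif CTTTGAT, through which beta-catenin acts with its DNA-binding partners, was found in 0 of the 32 and in 3.72% of genes. The TATA motif TATAAA was found in 2, Dkc1 and Pes1 (6.25%, beside 14.3% of genes). The E-box and the ETS match do not overlap in Utp18. The last 150 bases before the start of Imp4 and Utp18 show the E-box in capitals, with the ETS match CCGGAAG before it in Utp18.
Imp4, chr1:34439679-34439828, plus strand: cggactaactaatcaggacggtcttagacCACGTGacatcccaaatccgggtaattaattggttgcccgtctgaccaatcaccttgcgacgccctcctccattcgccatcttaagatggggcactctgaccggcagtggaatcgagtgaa
Utp18, chr11:93885767-93885916, minus strand: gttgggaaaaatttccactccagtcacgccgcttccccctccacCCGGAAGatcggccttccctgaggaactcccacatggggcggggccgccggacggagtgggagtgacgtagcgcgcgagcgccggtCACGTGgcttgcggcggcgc

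For comparison, the same 150 bases of the other 8 members given in full show no match of any of the 4 motifs. For Wdr12 and Rrp1b, which have 3 and 2 annotated starts, the start farthest upstream was taken.
Wdr12, chr1:60098501-60098650, minus strand: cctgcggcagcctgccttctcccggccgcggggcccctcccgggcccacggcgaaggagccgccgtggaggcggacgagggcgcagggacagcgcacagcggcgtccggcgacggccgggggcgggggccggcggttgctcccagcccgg
Ncl, chr1:86359456-86359605, minus strand: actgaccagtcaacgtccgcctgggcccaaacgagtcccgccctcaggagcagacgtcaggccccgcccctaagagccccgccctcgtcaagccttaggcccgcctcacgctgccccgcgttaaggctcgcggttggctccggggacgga
Nop58, chr1:59684856-59685005, plus strand: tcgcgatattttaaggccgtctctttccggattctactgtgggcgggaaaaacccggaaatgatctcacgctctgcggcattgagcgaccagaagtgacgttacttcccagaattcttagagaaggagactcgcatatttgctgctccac
Ddx21, chr10:62602299-62602448, minus strand: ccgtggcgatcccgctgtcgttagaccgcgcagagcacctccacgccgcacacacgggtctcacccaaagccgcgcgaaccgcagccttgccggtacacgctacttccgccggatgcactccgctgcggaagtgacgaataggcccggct
Bysl, chr17:47611493-47611642, minus strand: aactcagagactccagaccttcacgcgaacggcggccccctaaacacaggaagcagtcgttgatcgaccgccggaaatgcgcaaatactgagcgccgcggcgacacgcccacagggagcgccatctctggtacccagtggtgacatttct
Polr1a, chr6:71908903-71909052, plus strand: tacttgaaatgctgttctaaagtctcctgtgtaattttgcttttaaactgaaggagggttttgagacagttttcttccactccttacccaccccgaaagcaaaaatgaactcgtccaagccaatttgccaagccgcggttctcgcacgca
Rrp1b, chr17:32036012-32036161, plus strand: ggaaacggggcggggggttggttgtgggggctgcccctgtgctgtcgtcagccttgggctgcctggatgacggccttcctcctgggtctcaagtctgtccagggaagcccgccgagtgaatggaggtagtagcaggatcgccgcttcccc
Wdr75, chr1:45795016-45795165, plus strand: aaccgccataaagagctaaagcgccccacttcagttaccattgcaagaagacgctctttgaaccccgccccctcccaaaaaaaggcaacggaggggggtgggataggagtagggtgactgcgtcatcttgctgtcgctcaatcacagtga

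Arrays of the same group also differed from each other. Control replicate 3 was the lowest of the 6 arrays for 16 of 35 members (45.7%, against 34.7% of all genes) and the highest for 0. The mean deviation of the members from their own means was 0.03, −0.0089 and −0.15 in the controls against 0.07, −0.0052 and 0.06 on the floxed arrays. Control replicate 1 thus lay above floxed replicate 2, and control replicate 3 stood apart below the other 5. Control replicate 2 was the highest array for 12 members (34.3%, against 20.9% of all genes), among them Bop1, Imp4, Ddx21, Nolc1 and Polr1a, and the lowest for 7 (20.0%, against 11.3%), among them Ncl, Npm1 and Nop58. Floxed replicate 1 was the highest for 9 (25.7%, against 14.3%), including Ncl, Npm1, Nop58, Nop10 and Wdr12. The SD of a member was larger in controls than in floxed arrays for 26 of 35 (74.3%, against 73.6% of all genes), with medians of 0.18 and 0.11.

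Like the members and all genes (−0.04), markers of dividing cells, B cells and granulocytes had their lowest mean deviation on control replicate 3. Those of T and NK cells and of erythroid cells did not. The 21 proliferation genes measured had mean deviations of −0.18 to 0.05 in controls, lowest on control replicate 3. In floxed arrays they had 0.01 to 0.09. Between groups 13 were higher and 8 lower (61.9% higher, against 54.2% of all genes), with a median log2 fold change of 0.15. Their log2 fold changes ran from −0.22 for Ccnb2 to 0.55 for Gmnn. Mki67, a marker of cycling cells, had 0.21 (SE 0.10, limma adjusted p = 0.999), with all 3 floxed arrays above all 3 controls. That was so for 4 of the 21 genes (19.0%, against 5.57% of all genes). An unadjusted limma p under 0.05 was found for 3 of them on the higher side (14.3%, against 2.43%) and 0 on the lower side. The 9 B cell markers measured ran from −0.87 on control replicate 3 to 0.76 on control replicate 1, with −0.25 to 0.32 in floxed arrays. The 15 granulocyte and macrophage markers ran from −0.37 on control replicate 3 to 0.42 in controls and from −0.31 to 0.23 in floxed arrays. The summed log2 level of the B cell list was 71.7 to 86.4 in controls and 77.3 to 82.4 in floxed arrays, that of the granulocyte list 140.9 to 152.7 and 141.7 to 149.8. The 11 erythroid and megakaryocyte markers ran from −0.08 to 0.23 in controls and from −0.21 to 0.16 in floxed arrays, the 6 T and NK cell markers from 0.07 to 0.17 and from −0.33 to 0.11, and the 9 markers of stroma and endothelium from −0.13 to 0.12 and from −0.11 to 0.04. In the same order, their summed log2 levels were 103.7 to 107.1 and 102.3 to 106.3, 51.2 to 51.8 and 48.8 to 51.4, and 78.9 to 81.1 and 79.1 to 80.5. Between groups the erythroid, granulocyte, T and NK cell, stroma and B cell lists lay mostly on the lower side in floxed arrays, opposite to the members. Over all genes 6683 of 14586 were lower. The list of gate and stem cell genes had 6 of 10 higher and 4 lower (median log2 fold change 0.03). Lower were 10 of 11 erythroid and megakaryocyte markers (median log2 fold change −0.14), 11 of 15 granulocyte and macrophage markers (−0.15), 5 of 6 T and NK cell markers (−0.18), 6 of 9 stroma markers (−0.01) and 5 of 9 B cell markers (−0.07), and 0 of them passed in limma (smallest adjusted p = 0.999). The granulocyte genes Mmp8 and Ngp, the lowest of that list, had −1.03 (SE 0.36) and −0.88 (SE 0.28), both with overlapping groups. The 4 genes of the list on the higher side were Ctsg (0.46, SE 0.27), Prtn3 (0.19, SE 0.16), Cd68 (0.12, SE 0.19) and Mpo (0.05, SE 0.13). Detection calls were not used here, so no marker was called absent. The part of these differences in the values of the members was not tested, and in a sorted population fewer cells of a type and less RNA per cell cannot be told apart.

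**Figure D3:**
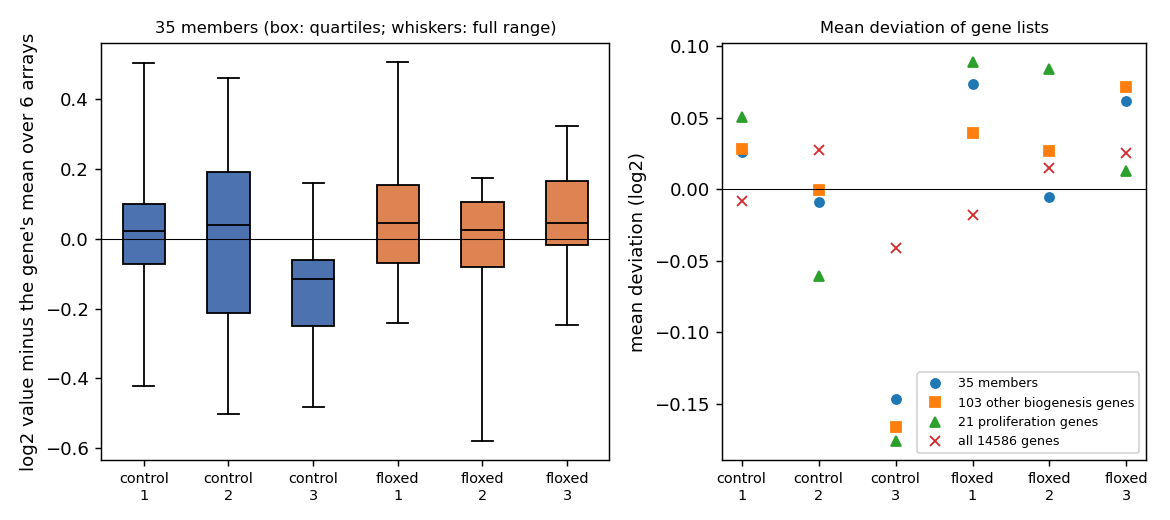
Left, the deviation of each of the 35 members from its own mean over the 6 arrays, in log2 units, by array (box, quartiles; whiskers, full range; control blue, floxed orange). Right, the mean deviation of 4 gene lists on each array. Control replicate 3 is lowest for the members (−0.15), the 103 other biogenesis genes (−0.17), the 21 proliferation genes (−0.18) and all genes (−0.04).

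The probe sets of a member bear on how far a single gene value can be read. Most are numbered in a single run, but some of Npm1, Fbl, Wdr12 and Ncl are numbered far from the rest. Those of Npm1, Fbl and Wdr12 were kept, and whether they measure the same transcript was not tested. Of the 544 probe sets of the 35 members, 475 were kept. Among these 303 were higher and 172 lower in floxed arrays (63.8% higher, against 58.8% of all kept probe sets), and 0 passed in limma (smallest adjusted p = 0.975, against 5 of 120788, 0.00414%, in all). An unadjusted p under 0.05 was found for 23 on the higher side and 5 on the lower side (against 3.21% and 1.14% of all probe sets). All floxed arrays lay above all controls for 42 of the 475 and below them for 12 (against 6.46% and 2.98% of all probe sets). Every kept probe set was higher for Wdr12 (11 of 11), Gar1 (8 of 8), Npm1 (6 of 6), Nop16 (6 of 6), Nhp2 (5 of 5), Fbl (4 of 4), Nip7 (4 of 4) and Nop10 (2 of 2), and 18 of 19 were higher for Wdr43, which had 6 with an unadjusted p under 0.05. Probe sets of 1 gene share its RNA and are not replicates. How many of all genes had every kept probe set on 1 side was not counted.

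On the higher side the smallest p belonged to the brightest Npm1 probe set, which was 12.93, 12.85 and 12.93 in the controls against 13.23, 13.27 and 13.20 on the floxed arrays. The groups were apart, with a log2 fold change of 0.34 (SE 0.08, limma adjusted p = 0.975). It was followed by a probe set of Fbl (0.27, SE 0.09) and one of Nop10 (0.33, SE 0.12), both with separate groups. On the lower side the smallest p belonged to a probe set of Ncl, of whose 17 kept probe sets 12 were higher and 5 lower. It was at 8.81, 8.98 and 9.35 in the controls against 8.11, 8.41 and 8.06 on the floxed arrays. The groups did not overlap, and the difference was −0.85 (SE 0.23, limma adjusted p = 0.975), while other kept probe sets of Ncl reached 0.46. A pair of Nolc1 and Polr1a probe sets followed, at −0.45 (SE 0.14) and −0.48 (SE 0.19).

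**Figure D4:**
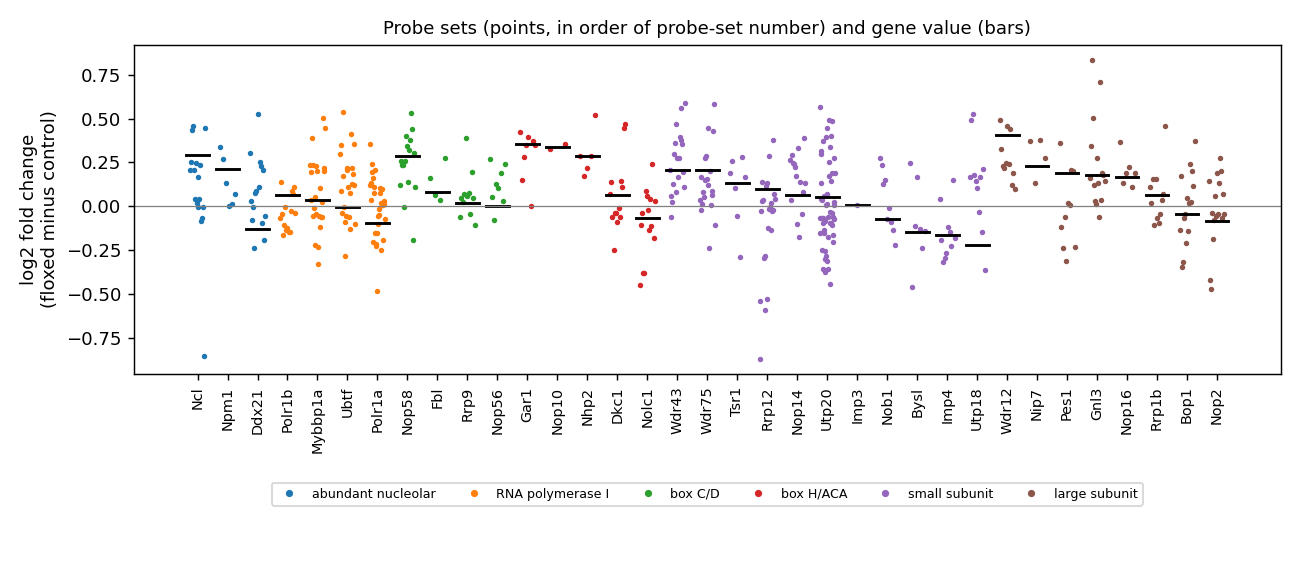
Log2 fold change of each of the 475 kept probe sets (points, in order of probe-set number within a gene) and of the gene value (black bars) for the 35 members, coloured by role. All points lie above 0 for Gar1, Nop10, Nhp2 and Wdr12, whereas for Utp18 the bar (−0.22) lies below 8 of 11 points that are above 0.

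For 9 of the 35 members the gene value had the opposite sign to most of its probe sets. In Utp18 8 of 11 probe sets were higher although the gene value was lower by 0.22, in Ddx21 9 of 15, and in Polr1b 11 of 15 were lower although the gene value was 0.06. A median over probe sets of unequal brightness can pick different probe sets on different arrays, so each probe set was also moved to a common mean before the median was taken, an alternative added after the data were seen. Then Utp18 had 0.07, Ddx21 0.06 and Polr1b −0.0079, 27 of 35 members were higher, and their median was 0.07 beside 0.03 over all genes. The sign was then opposite to most probe sets for 4 members, Dkc1, Polr1a, Utp20 and Nob1, the last only at this setting. The members with an unadjusted limma p under 0.05 were then Nhp2 (0.39, SE 0.12), Gar1 (0.30, SE 0.11) and Nop10 (0.34, SE 0.14). These were 3 of 35 (8.57%), all higher, against 3.75% of all genes in either direction and 2.67% on the higher side. Each encodes a core protein of the H/ACA particle. Dkc1, the fourth core protein, had 0.04 (SE 0.11). None of them passed after adjustment over all genes (adjusted p = 0.998).

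Other genes of ribosome biogenesis, a list of 111 that holds none of the members, were also mostly on the higher side without passing the test. Of 103 measured, 75 lay on the higher and 28 on the lower side (72.8% higher, against 54.2% of all genes). The median difference was 0.10, beside 0.02 over all genes, and 0 passed in limma (smallest adjusted p = 0.999). All floxed arrays lay above all controls for 12 of the 103 and below them for 4 (11.7% and 3.88%, against 5.57% and 2.87% of all genes). Without control replicate 3 the median of the 103 was 0.02, where all genes had 0.0019. By stage, 8 of 9 genes of RNA polymerase I transcription, 30 of 40 of the small subunit, 33 of 46 of the large subunit and 4 of 8 of snoRNP assembly were higher. Of the 3 with the smallest p on the higher side, the small subunit factor gene Utp11 had 0.56 (SE 0.17), Znhit6, which helps to assemble the box C/D snoRNP, had 0.46 (SE 0.15), and the large subunit factor gene Rrp15 had 0.42 (SE 0.15). Utp11 was −0.08 with the filter at the 75th percentile. On the lower side Wdr46, a scaffold of the small subunit processome, had −0.64 (SE 0.18), the largest difference of the list. It was 9.71, 10.19 and 9.86 in the controls against 9.41, 8.98 and 9.45 on the floxed arrays, with no overlap. Tcof1, which encodes treacle, a partner of RNA polymerase I, had −0.39 (SE 0.14), and the large subunit factor gene Urb2 had −0.40 (SE 0.15). Over the 16 alternatives Tcof1 ran from −0.45 to −0.04, Urb2 from −0.54 to −0.30 and Wdr46 from −0.91 to −0.31. Under the main settings the limma adjusted p of all 6 was 0.999. With array weights 5 of the 103 passed, namely Rpf2, Urb2, Utp11, Wdr46 and Znhit6, where 2.77% of all genes did.

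Myc, the activator of many of these genes, differed by less than its interval. It was 12.06, 12.00 and 11.98 in the controls against 12.15, 12.10 and 12.09 on the floxed arrays. All 3 floxed values lay above the controls, by little: the log2 fold change was 0.10 (SE 0.09, limma adjusted p = 0.999). Its relative Mycn had −0.0042 and their partner Max had −0.16, and the sign of both turned when some single array was left out.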

How the data were processed

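Biotinylated cRNA from sorted cells was hybridised to 6 arrays, 3 per group, assigned by sample title. The deposited table holds the authors' log2 expression values of 241576 probe sets, from 2.44 to 14.53; the log2 scale was read from this range. MAS5 is named in the submitters' processing notes with no role. The rest of the authors' background correction, summarisation and normalization, and the genome build, are not given in the sources used here. Array medians were 7.56 to 7.65, and nothing was renormalized. Neither detection calls nor scanner data entered the calculations, and precision is limited by the 6 arrays.

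The platform annotation named 1 gene for 212097 probe sets, more than 1 for 4475 and no gene for 25004; only the first kind was used for genes, with symbols updated through RefSeq (GRCm38.p6). The 120788 probe sets at or above the median mean level were kept. The test on gene medians was that of limma 3.58.1 under R 4.3.3 (lmFit, eBayes with trend), two-sided, Benjamini-Hochberg over all genes, threshold 0.05. The steps were tested on simulated data. Members and lists were chosen with earlier results of these data known. All members are named; the 5 of smallest p per direction and all whose groups do not overlap are given in full with their promoters, then the 3 of smallest p per direction among the other biogenesis genes and among probe sets. Promoters came from RefSeq windows of 300 bases. Alternatives were other normalizations, filters, gene summaries, eBayes settings, array weights, a replicate block and leaving out each array. Protein sequences were not used here.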

Additional observations from a re-analysis of the deposited data

How the results depend on the processing

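The count of members past the threshold stayed at 0 under every alternative but array weights, which gave 1 (Nop10), and the count of other biogenesis genes likewise, with 5. Array weights gave little weight to control replicates 1 and 3 (0.270 and 0.402, against 3.37 for control replicate 2). The median of the members was 0.13 with no filter, and that of the other biogenesis genes 0.018 without control replicate 3, over a range of 0.018 to 0.14 when 1 array was left out; the cause was not tested. The sample titles give replicate numbers but do not say whether same-numbered arrays belong together. Deviations of same-numbered arrays from their group means correlated at 0.198, −0.0036 and −0.24. Such deviations sum to 0 within a group, so these values cannot decide whether arrays were paired. With the replicate block the count was again 0, the median 0.06 and 25 members higher.

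Of 35 members 14 kept their sign under all 16 alternatives, among them Gar1, Nop10, Nhp2, Wdr12, Ncl, Nop58 and Imp4, the last at −0.0070 with the filter at the 75th percentile. The other 21, together with Max, Mycn and Utp11, changed sign somewhere. None of these passed under the main settings, Utp11 passed with array weights (0.81, limma adjusted p = 0.0214), and the cause was not tested. Values that turned were, with array weights, Fbl −0.14, Imp3 −0.053, Mybbp1a −0.16, Nob1 0.019, Nop56 −0.062, Polr1b −0.0086, Rrp12 −0.10, Rrp9 −0.066 and Utp20 −0.12. With equal array medians they were Imp3 −0.023, Nop56 −0.030 and Rrp9 −0.013, and with quantile normalization Imp3 −0.021, Nop56 −0.030 and Rrp9 −0.023. With the filter at the 75th percentile they were Mycn 0.026, Nob1 0.11, Nop2 0.026, Pes1 −0.017, Polr1b −0.035, Rrp12 −0.11, Rrp9 −0.034, Utp11 −0.076 and Utp18 0.26. With the mean of probe sets they were Ddx21 0.078, Max 0.0023, Mycn 0.11, Nob1 0.029, Pes1 −0.016, Polr1b −0.039, Rrp12 −0.095, Ubtf 0.12 and Utp18 0.13. With no filter they were Bop1 0.0070, Bysl 0.099, Mycn 0.13, Polr1a 0.0046, Rrp12 −0.32 and Utp18 0.14. With centred probe sets, added after the data were seen, they were Bop1 0.021, Ddx21 0.058, Mycn 0.0041, Nob1 0.052, Pes1 −0.0028, Polr1b −0.0079, Rrp12 −0.017, Ubtf 0.092 and Utp18 0.070. Leaving out 1 array gave Bop1 −0.16 to 0.081, Bysl −0.34 to 0.049, Dkc1 −0.054 to 0.28, Fbl −0.013 to 0.23, Gnl3 −0.027 to 0.31, Imp3 −0.089 to 0.091, Max −0.38 to 0.14, Mybbp1a −0.080 to 0.17, Mycn −0.15 to 0.17, Nip7 −0.018 to 0.34, Nob1 −0.21 to 0.023, Nolc1 −0.18 to 0.025, Nop2 −0.15 to 0.016, Nop56 −0.053 to 0.054, Rrp12 −0.086 to 0.16, Rrp9 −0.054 to 0.065, Ubtf −0.084 to 0.063, Utp18 −0.38 to 0.013 and Utp20 −0.067 to 0.18.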
